A study of Mus musculus with 35 samples.

Results

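The genes described here are 10 markers of the primitive streak and of the first mesoderm to leave it: T, Eomes, Mixl1, Evx1, Lhx1, Mesp1, Mesp2, Tbx6, Msgn1 and Kdr. They were picked by symbol from a table of 54446 genes, and all 10 were found. The table held bulk RNA-seq levels of 27 libraries, 3 for each of 5 embryonic stages and 3 for each of 4 cultures, and the study asked which stage of the epiblast the cultures resemble. The remaining samples of the series, single-cell RNA and bisulfite libraries, were not analysed here.

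The embryos were labelled wild-type, untreated, CD-1 and male/female, and the study's methods add that Pdgfrα:H2B-GFP reporter mice were mated as well as CD-1 mice and that sex was not determined. At E3.5 the inner cell mass was cut out, and at E4.5 the epiblast was freed of trophectoderm by immunosurgery and picked for cells without the Pdgfrα:H2B-GFP reporter of primitive endoderm, with 10 embryos in a library. From E5.5 to E7.5, each library pooled 3 to 5 epiblasts after the extra-embryonic tissues had been taken off. At E7.5 the allantois was taken off with them. The cultures were wild-type as well. ESC-derived and embryo-derived 3D EpiSCs grew as spheroids in 3D Matrigel with FGF2, Activin A, XAV (a tankyrase inhibitor that blocks canonical Wnt signalling) and Noggin (a BMP antagonist). They differ in their source, which is embryonic stem cells for the former and the E5.5 epiblast for the latter. The study's methods name LifeAct-GFP and wild-type CD-1 embryos for the latter, and list a wild-type ESC line obtained from another laboratory. They do not say which of these gave the libraries, so genetic background may differ between the 3D cultures too. The 2D EpiSCs, primed cells converted from ESCs, received FGF2 and Activin A without either inhibitor. By the study's methods, their Activin A dose, base medium and growth substrate also differed from those of the 3D cultures. Dimension, inhibitors and these conditions cannot be told apart in a comparison with the 2D EpiSCs. EpiLCs, a formative state, were ESCs kept for 48 h in FGF2 and Activin A. The labels do not say whether the 3 libraries of a culture came from separate cultures, so p-values measure the spread between libraries, which may be technical.

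During gastrulation, epiblast cells on the posterior side of the embryo enter the primitive streak, lose their epithelial organisation and emerge as mesoderm or definitive endoderm. Nodal, Wnt and BMP signals induce the streak, and T-box and homeodomain factors carry out the programme. Cells that leave the streak first give extra-embryonic, blood-forming and cardiac mesoderm, and cells that leave later give paraxial mesoderm, the source of the somites.

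Levels are TPM, a share of the transcripts of a library scaled by gene length, so they compare genes per length. They keep no record of the reads each library yielded, so no counting interval can be given. Differences are on the scale of log2(TPM + 1), which understates changes of low genes. A gene was called when the limma adjusted p (Benjamini-Hochberg) was below 0.05 and the difference was above 1 in size. In bulk samples, fewer cells of a type and less RNA per cell cannot be told apart. Embryos and cultures were sequenced with different library protocols, so their levels are set side by side and were not tested against each other.

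The marker lists place the libraries before any member is read. Epiblast markers (Pou5f1, Sox2, Dnmt3b and 5 others) had mean summed levels between 850 TPM at E7.5 and 3940 TPM in ESC-derived 3D EpiSCs. Trophectoderm markers summed to 3281 TPM at E3.5 and 3026 TPM at E4.5, where Krt18 averaged 1666 TPM, Krt8 787 TPM and Elf5 127 TPM, although the trophectoderm was removed. They fell to 380 TPM at E5.5 and stood at 459 TPM at E6.5 and 823 TPM at E7.5. Extra-embryonic endoderm markers summed to 184 TPM at E4.5 and to 860, 1390 and 1439 TPM at E5.5, E6.5 and E7.5, with Apoa1, Ttr and Afp among them, although the visceral endoderm was removed. In culture, Ttr and Afp were at or near 0, and the list summed to between 2.64 TPM in the lowest and 106 TPM in the highest library. A pair of replicates was nearly identical in 3 cultures: 1 and 2 among ESC-derived spheroids, 2 and 3 among embryo-derived spheroids, 1 and 2 among 2D cells. Their median differences were 0.061, 0.057 and 0.065 on the log2 scale, against 0.13 to 0.27 for other pairs in culture.

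**Figure D1:**
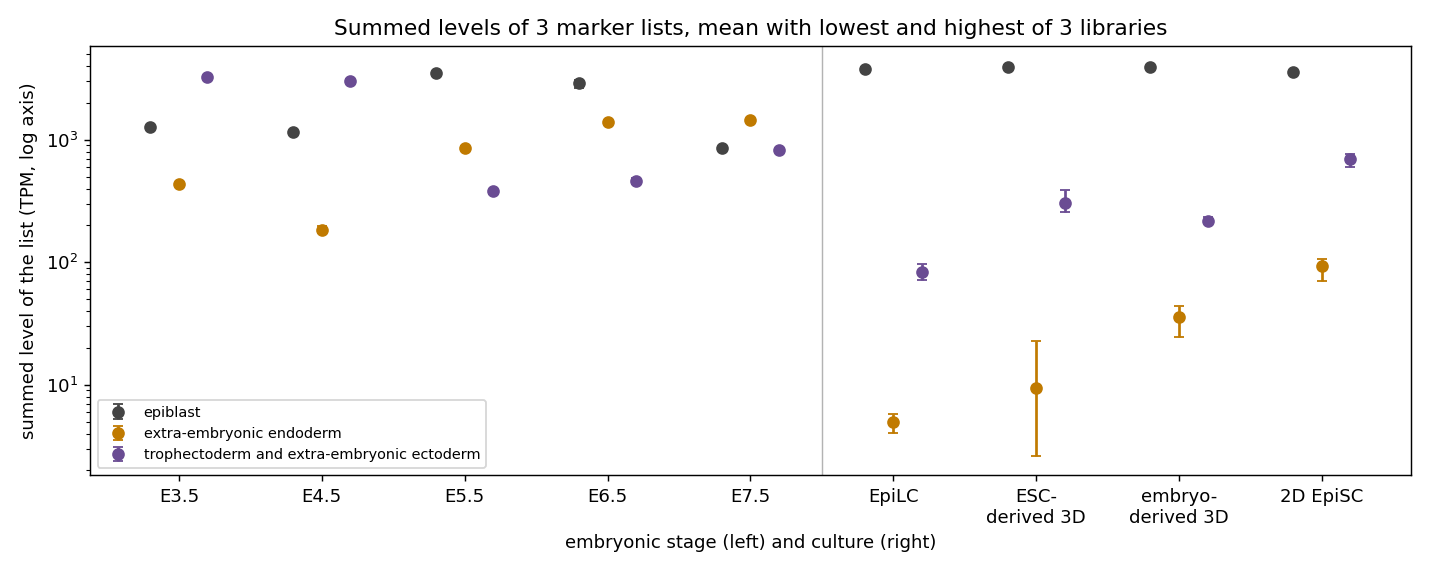
Summed TPM (log axis) of the epiblast, extra-embryonic endoderm and trophectoderm lists at 5 embryonic stages and in 4 cultures; points are means and bars span the lowest and highest of 3 libraries. Trophectoderm markers were highest at E3.5 and E4.5, and extra-embryonic endoderm markers at E6.5 and E7.5.

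T, or Brachyury (chr17:8434423-8442496, plus strand, mm10), is the founding T-box factor, needed for mesoderm formation and made throughout the streak. It was listed at 0 in all 3 E4.5 libraries, and E3.5 libraries held 0.111, 0.534 and 1.37 TPM. It then measured 4.71, 4.42 and 5.93 TPM at E5.5, followed by 31.0, 28.1 and 30.3 TPM at E6.5. At E7.5 it stood at 98.4, 97.9 and 93.1 TPM. The stages from E5.5 onwards did not overlap, and each was above the stage before it. T was called higher at E5.5 than at E4.5 (adjusted p = 7.71e-08), a step with no fold because the earlier stage is listed at 0. It rose by 2.36 ± 0.20 (SE) from E5.5 to E6.5 and by 1.66 ± 0.20 from E6.5 to E7.5, with adjusted p of 7.2e-06 and 1.44e-05.

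Eomes (chr9:118478212-118486132, plus strand) encodes the T-box factor that acts ahead of Mesp1 and of definitive endoderm, and it is also a factor of the trophectoderm and the visceral endoderm. Unlike T it was present from the start, at 99.3, 104.1 and 94.7 TPM at E3.5 and 148.0, 154.0 and 160.2 TPM at E4.5. It measured 77.6, 74.4 and 80.8 TPM at E5.5 and 173.2, 159.1 and 146.4 TPM at E6.5. At E7.5 it was down to 3.70, 5.09 and 3.52 TPM. The E4.5 and E6.5 libraries overlapped, the E5.5 libraries lay below both, and the E7.5 libraries lay far below every other stage. The rise from E5.5 to E6.5 was 1.03 ± 0.11 (adjusted p = 7.69e-05), close to the threshold of 1, and was 0.97 without E6.5 replicate 1 and just under 1 without E5.5 replicate 2. The fall to E7.5 was -4.99 ± 0.11 (adjusted p = 1.2e-12). The step from E4.5 to E5.5, at -0.98, stayed short of the threshold of 1 and passed it with median-of-ratios scaling, at -1.13, and without E4.5 replicate 1 or E5.5 replicate 3, at -1.01 each. All 10 trophectoderm markers tested were lower at E5.5 than at E4.5, against 9.47% of all genes, with Tfap2a at -5.43 and Gata3 at -5.26. The RNA was also fragmented under other settings up to E4.5 than from E5.5. The part of either in the Eomes levels was not tested. An antisense gene, Gm33460, overlaps Eomes and never exceeded 3.59 TPM, and the sources used here do not say whether counting used the strand.

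Mixl1 (chr1:180693043-180697034, minus strand) is a homeodomain factor of the streak that guides mesoderm and endoderm formation. It stayed at 1.10 TPM or less up to E4.5 and measured 9.55, 10.5 and 9.76 TPM at E5.5. It peaked at 61.1, 54.1 and 46.0 TPM at E6.5 and was back at 5.34, 5.49 and 5.16 TPM at E7.5. No library of E5.5, E6.5 or E7.5 overlapped another of these stages. Mixl1 was called higher at E5.5 (2.87 ± 0.20) and at E6.5 (2.32 ± 0.20), and lower at E7.5 (-3.10 ± 0.20), with adjusted p of 3.35e-08, 1.08e-05 and 4.22e-08. With a pseudocount of 0.1 the E6.5 step was 2.41 with an adjusted p of 0.0523 and was no longer called.

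Evx1 (chr6:52313498-52318378, plus strand) is a homeodomain factor of the posterior streak. Its levels were 5.77, 4.33 and 4.94 TPM at E5.5, 15.3, 11.7 and 8.80 TPM at E6.5, and 10.8, 9.63 and 9.56 TPM at E7.5. The later stages overlapped each other, and both lay above E5.5. It rose by 1.74 ± 0.18 to E5.5 and by 1.08 ± 0.18 to E6.5 (adjusted p = 0.00257). The E6.5 rise fell to 0.90 without E6.5 replicate 1 and to 0.99 without E5.5 replicate 2, and was then not called. Between E6.5 and E7.5 the difference was -0.20, with a 95% interval from -0.60 to 0.19. The antisense gene Evx1os overlaps Evx1 and reached 9.85 TPM, with its highest mean of 7.03 TPM at E7.5, so part of the Evx1 level could be its reads if strand was not used.

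Lhx1 (chr11:84518284-84525535, minus strand) encodes a LIM-homeodomain factor of the anterior streak and its mesendoderm, and it is also made in the anterior visceral endoderm. It measured 17.0, 17.4 and 19.6 TPM at E5.5, 41.5, 49.7 and 40.7 TPM at E6.5 and 7.98, 7.05 and 6.14 TPM at E7.5. The stages did not overlap. The rise to E5.5 was 3.31 ± 0.13 from a level at E4.5 of at most 1.27 TPM, the rise to E6.5 was 1.24 ± 0.13 and the fall to E7.5 was -2.48 ± 0.13 (adjusted p = 6.43e-11, 5.38e-05 and 3.7e-09). Summed extra-embryonic endoderm markers went from 184 to 860 to 1390 TPM over the rises and stood at 1439 TPM at the last stage. The sum takes in the whole list, with Apoa1, Ttr and Afp, and does not single out the anterior visceral endoderm. It therefore cannot show how much Lhx1 came from that tissue at any stage. Of the 12 genes of that list, 6 were called higher at E5.5 than at E4.5, against 14.9% of all genes, and none was called in either of the later steps. Their part in the Lhx1 rises was not tested.

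**Figure D2:**
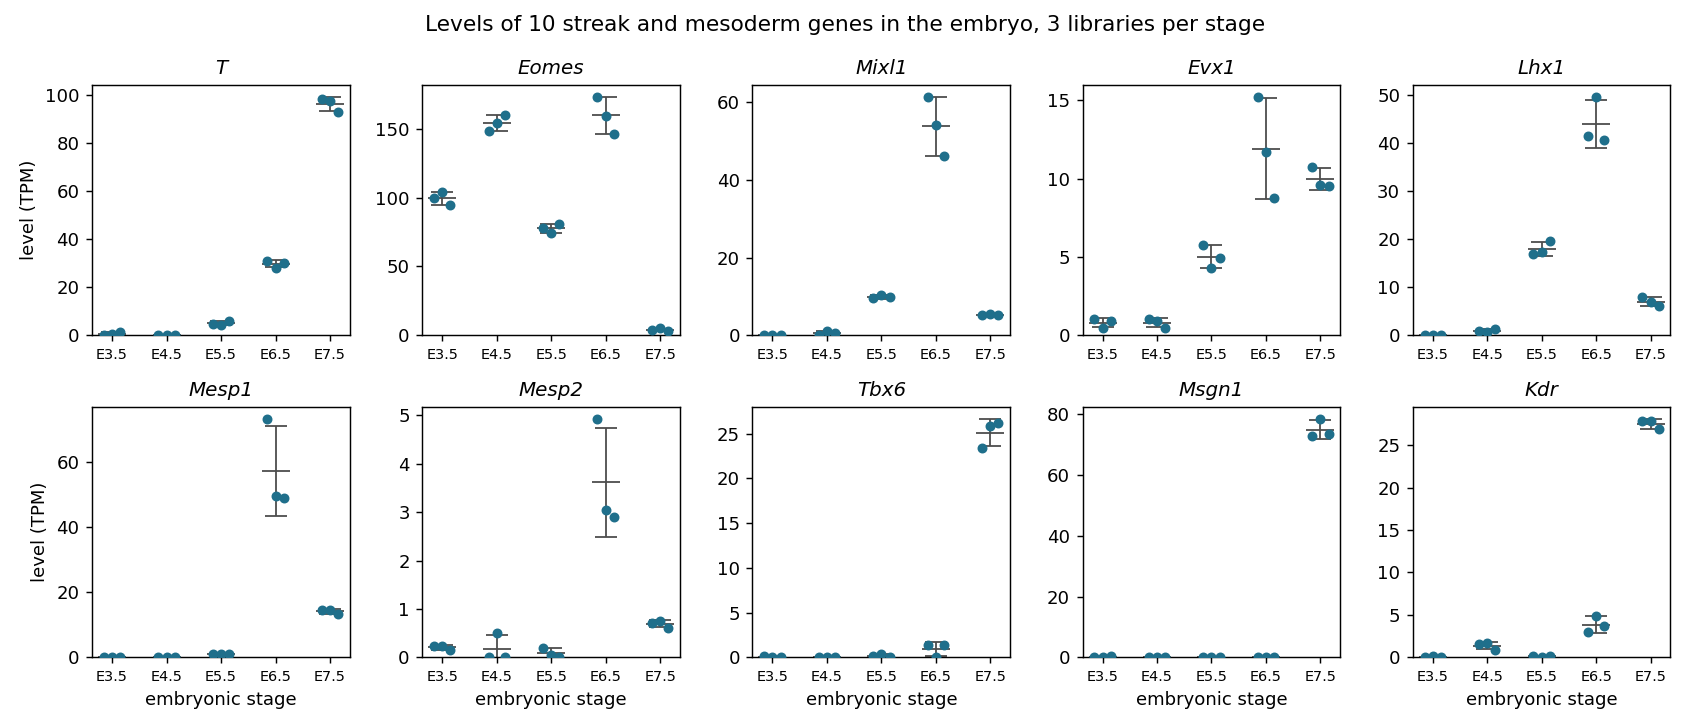
TPM of the 10 genes at 5 embryonic stages, each panel with its own linear axis from 0; points are the 3 libraries of a stage, the wide tick is the mean and bars are 1 SD, cut at 0. Mixl1, Lhx1, Mesp1 and Mesp2 were highest at E6.5, while T, Tbx6, Msgn1 and Kdr were highest at E7.5.

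Mesp1 and Mesp2 are neighbouring basic helix-loop-helix genes. Mesp1 marks the first mesoderm of the streak, including cardiac progenitors, and Mesp2 is best known for setting somite boundaries. Mesp1 lies at chr7:79792241-79793788 on the minus strand and Mesp2 at chr7:79810727-79813439 on the plus strand, so they point away from each other, with starts 16939 bases apart by the coordinates of the table. The sequences around their starts are shown because both genes peaked at the same stage, and those of T and Msgn1 because their E7.5 levels were the highest among the members. They are RefSeq sequences of GRCm38.p6, running from 250 bases before to 50 bases after the start that RefSeq gives, and were found for 9 of the 10 members (all but Mixl1). That start lies 198 bases inside the gene as the table bounds it for Mesp1 and 24 bases inside for Msgn1, and coincides with the table's start for T and Mesp2. Capitals mark the T-box core AGGTGT and the TCF/LEF core CTTTGA, searched on both strands, so that ACACCT and TCAAAG are the same motifs on the other strand.
Mesp1 (chr7:79793541-79793840, minus strand): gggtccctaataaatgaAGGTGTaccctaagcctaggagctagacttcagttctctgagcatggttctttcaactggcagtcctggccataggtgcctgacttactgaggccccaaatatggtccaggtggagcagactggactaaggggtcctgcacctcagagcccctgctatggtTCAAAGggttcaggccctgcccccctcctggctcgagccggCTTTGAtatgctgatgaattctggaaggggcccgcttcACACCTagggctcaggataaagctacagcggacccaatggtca
Mesp2 (chr7:79810477-79810776, plus strand): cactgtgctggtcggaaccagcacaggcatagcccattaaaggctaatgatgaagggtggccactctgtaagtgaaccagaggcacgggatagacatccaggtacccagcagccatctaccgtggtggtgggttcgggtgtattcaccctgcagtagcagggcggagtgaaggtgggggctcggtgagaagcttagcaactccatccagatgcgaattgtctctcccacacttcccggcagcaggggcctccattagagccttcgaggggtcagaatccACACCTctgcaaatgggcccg
T (chr17:8434173-8434472, plus strand): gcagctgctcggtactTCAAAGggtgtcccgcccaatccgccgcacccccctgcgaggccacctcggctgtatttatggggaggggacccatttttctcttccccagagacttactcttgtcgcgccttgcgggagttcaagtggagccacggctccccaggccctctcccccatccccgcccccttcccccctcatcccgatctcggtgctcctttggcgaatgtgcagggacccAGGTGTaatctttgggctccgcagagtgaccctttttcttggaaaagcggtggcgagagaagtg
Msgn1 (chr12:11208899-11209198, minus strand): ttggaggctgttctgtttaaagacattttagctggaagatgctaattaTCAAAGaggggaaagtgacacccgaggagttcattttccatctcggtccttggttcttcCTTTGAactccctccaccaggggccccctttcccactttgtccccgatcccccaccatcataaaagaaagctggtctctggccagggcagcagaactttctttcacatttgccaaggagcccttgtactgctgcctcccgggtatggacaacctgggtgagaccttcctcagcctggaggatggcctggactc

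The T-box core was present in the promoters of T, Mesp1, Mesp2 and Evx1, which is 4 of 9, and in 13.9% of the 27025 mouse promoters of the same length. The TCF/LEF core was present in T, Mesp1 and Msgn1, 3 of 9, against 16.2% of all promoters. Mesp1 carried each core 2 times, with a T-box core 7 bases past the RefSeq start, and Mesp2 carried its T-box core 29 bases past its start. A TATAAA motif was found in 1 of the 9, Tbx6, 43 bases before its start, against 14.2% of all promoters. A match describes the letters of this window and is not evidence of binding.

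Mesp1 was listed at 0 in all 6 libraries of E3.5 and E4.5, and held 0.956, 1.13 and 0.985 TPM at E5.5. It reached 73.3, 49.6 and 48.9 TPM at E6.5 and 14.6, 14.4 and 13.3 TPM at E7.5. Replicate 1 of E6.5 stood above its partners, and the stages did not overlap. Mesp1 was called higher at E5.5 than at E4.5 (adjusted p = 8.3e-06), with no fold given against a stage listed at 0, and was not called without E5.5 replicate 2. The rise to E6.5, at 4.82 ± 0.12 (adjusted p = 3.48e-11), exceeded that of any other member in this step. The fall to E7.5 was -1.92 ± 0.12 (adjusted p = 3.98e-08).

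Mesp2 followed at a lower level, with 4.92, 3.04 and 2.90 TPM at E6.5 and 0.711, 0.758 and 0.618 TPM at E7.5. No earlier library exceeded 0.513 TPM. It rose by 2.07 ± 0.17 to E6.5 and changed by -1.42 ± 0.17 to E7.5 (adjusted p = 7.2e-06 and 1.78e-05). The same E6.5 library was highest for both Mesp genes, and within libraries Mesp1 exceeded Mesp2 by 14.9 to 16.8 times at E6.5 and 19.1 to 21.6 times at E7.5.

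Tbx6 (chr7:126781483-126785560, plus strand) is the T-box factor that directs cells to paraxial mesoderm. It measured 1.41, 0 and 1.41 TPM at E6.5 and 23.4, 25.8 and 26.2 TPM at E7.5. All earlier libraries were at 0.401 TPM or less. The stages did not overlap, and the difference was 3.86 ± 0.26 (adjusted p = 6e-08). From E5.5 to E6.5 the difference was 0.61, with a 95% interval from 0.05 to 1.17, and was not called. It was 1.04 and called without E6.5 replicate 2, the library at 0.

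Msgn1 (chr12:11208360-11208972, minus strand) is a basic helix-loop-helix factor of the presomitic mesoderm that acts with Tbx6. It was at 72.7, 78.3 and 73.4 TPM at E7.5. Before that, 10 of 12 libraries were listed at 0 and the others held 0.111 and 0.406 TPM. The difference from E6.5 to E7.5 was 6.19 ± 0.11 (adjusted p = 4.41e-13), and its size depends on the pseudocount because the E6.5 libraries are at or near 0.

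Kdr (chr5:75932827-75978458, minus strand) encodes the VEGF receptor that marks blood and endothelial progenitors. It measured 2.96, 4.89 and 3.70 TPM at E6.5 and 27.8, 27.8 and 26.8 TPM at E7.5, after 0.142 TPM or less at E5.5. It rose by 2.11 ± 0.14 to E6.5 and by 2.57 ± 0.14 to E7.5 (adjusted p = 1.28e-06 and 9.21e-09). Kdr also held 1.52, 1.72 and 0.896 TPM at E4.5, above both neighbouring stages, and was called higher than at E3.5 (1.15 ± 0.14) and lower at E5.5 (-1.08 ± 0.14). The latter became -0.98 and was not called without E4.5 replicate 2. Trophectoderm markers were also present at E4.5, and of the haematoendothelial list Gata2 was at 49.0 TPM and Cdh5 at 8.5 TPM. The mean sum of the latter list was 239 TPM at E3.5 and 88 TPM at E4.5. Of its 11 genes tested, 1 was higher (Cdh5) and 3 were lower at E4.5 than at E3.5, against 5.88% and 11.9% of all genes. At E5.5, 2 were higher and 4 lower than at E4.5, against 14.9% and 9.47% of all genes, with Gata2 and Cdh5 among the lower. The part of these genes in the Kdr level was not tested.

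The members called at each step can be read against the share of all 11880 genes called. From E3.5 to E4.5, 1 of 10 was higher (background 5.88%) and 0 were lower (11.9%), with 9 of the 10, all but Eomes, below 1 TPM on average at E3.5. T, listed at 0 at E4.5 (adjusted p = 0.0105), and Lhx1, at 0.78 (adjusted p = 0.00016), stayed short of the threshold of 1 in that step, and both passed it with a pseudocount of 0.1. From E4.5 to E5.5, 5 were higher (14.9%) and 1 was lower (9.47%). Dissection, the number of embryos in a library and RNA fragmentation all changed at this step and cannot be told apart from stage in it. From E5.5 to E6.5, 8 of 10 were higher, against 0.715% of all genes, and 0 were lower, against 0.48%. Without E6.5 replicate 1 that count was 5, since Eomes and Evx1 lost the call and Mesp2 fell below the filter. The median difference of the members was 1.65, and that of all genes was -0.06. From E6.5 to E7.5, 4 were higher (10.6%) and 5 were lower (1.94%), with a median of -0.81 against 0.31 for all genes. The count of 4 became 2 when any single E7.5 library was left out, since Tbx6 and Msgn1 then fell below the filter. Successive steps share the libraries of the stage between them. Mesp2 passed the filter on low values through E6.5, and Tbx6 and Msgn1 through E7.5, so these 3 had to differ between stages to be tested at all. The 5 members called higher at E5.5 were under 2 TPM in every library up to E4.5. Mesp1, Mesp2 and Kdr were under 2 TPM in every library up to E5.5. All of these were tested only because of later stages, so the counts of higher members at E5.5 and E6.5 partly follow from the filter.

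**Figure D3:**
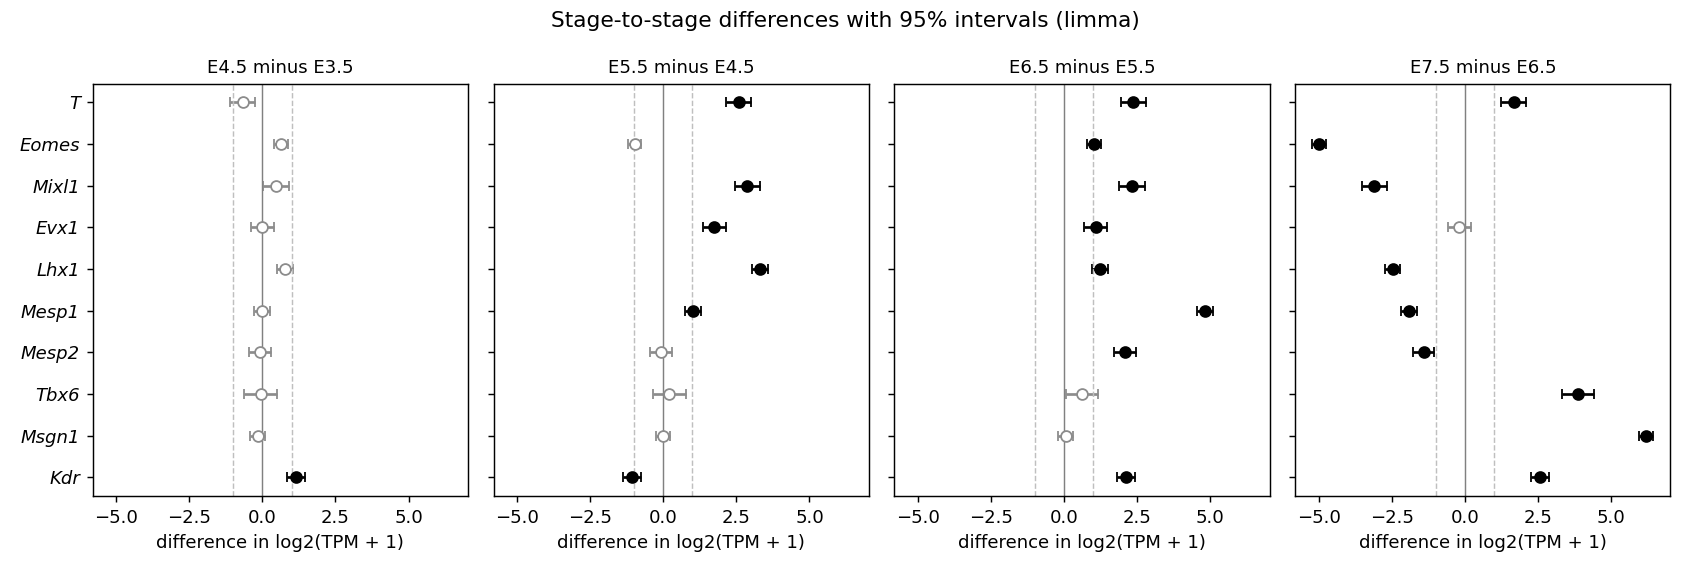
Difference in log2(TPM + 1) between successive stages for each of the 10 genes, with 95% intervals from limma; filled points were called and open points were not, and dashed lines mark differences of 1 in either direction. The sizes for T and Mesp1 at E5.5 depend on the pseudocount, since E4.5 is listed at 0. At E6.5 the 8 called genes lie to the right, and at E7.5 4 lie to the right and 5 to the left.

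The balance between members of 1 library shifted with stage, in ratios picked after the values had been seen. Eomes exceeded T by 13.6 to 16.9 times at E5.5 and by 4.82 to 5.66 times at E6.5. At E7.5 the ratio of Eomes to T was 0.0376 to 0.0521. Mesp1 stood at 0.312 to 0.423 of Eomes at E6.5 and at 2.84 to 3.95 times Eomes at E7.5. None of these ranges overlapped between stages.

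The other genes of the pathway came from fixed lists. Of all genes tested, 0.715% were called higher and 0.48% lower at E6.5 than at E5.5. At E7.5 against E6.5 these shares were 10.6% and 1.94%. Among 10 streak-inducing ligands and co-receptors, 1 was higher (Wnt3, 1.03 ± 0.11) and 1 lower (Fgf4, -1.23 ± 0.14) at E6.5 than at E5.5. At E7.5, 5 were higher (Bmp4, Wnt3a, Wnt5a, Wnt5b and Wnt8a) and 4 were lower (Fgf8, Nodal, Tdgf1 and Wnt3), with Tdgf1, the Nodal co-receptor, at -5.80 ± 0.10 and Nodal at -3.62 ± 0.15. Of 12 other streak and epithelial-mesenchymal transition factors tested, 6 rose to E6.5, led by Sp5 (2.00 ± 0.13), a Wnt target, and Snai1 (1.92 ± 0.17), a repressor of E-cadherin. A further comparison of that list, between E6.5 and E7.5, gave 6 higher, led by Cdx1 (6.80 ± 0.14), and 1 lower, Gsc of the anterior streak. Paraxial mesoderm genes were higher at E7.5 in 9 of 10, with Aldh1a2, the enzyme of retinoic acid synthesis, at 7.18 ± 0.14. Haematoendothelial genes were higher in 7 of 11, and epiblast genes were lower in 7 of 8, with Utf1 at -4.35 ± 0.15. Neural ectoderm genes were higher at E7.5 in 3 of 3 tested, with Irx3 at 3.11 ± 0.21 and Six3 at 2.76 ± 0.15, and the mean sum of that list went from 9.51 TPM at E6.5 to 91.2 TPM at E7.5. Of 10 trophectoderm markers tested, 3 were higher (Gata3, Krt8 and Tfap2a) and 3 were lower (Bmp8b, Elf5 and Esrrb) at E7.5 than at E6.5. The part of the neural ectoderm and trophectoderm lists in the member differences at this step was not tested.

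Genes with the most similar pattern over the 15 embryo libraries were listed by Pearson's r of log2(TPM + 1), as a description across stages that share most of their variation. T was closest to Asb4 (0.991), Slc2a2 (0.990) and Cdhr2 (0.988), and Eomes to Tdgf1 (0.977), Utf1 (0.955) and L1td1 (0.952). Mixl1 was closest to Lhx1 (0.976), Dnmt3c (0.974) and Wnt3 (0.966), and Lhx1 to F5 (0.982), Brinp1 (0.979) and Mixl1 (0.976). For Evx1 these genes were Sp5 (0.986), Vil1 (0.979) and Foxj1 (0.978). For the Mesp genes they were Wnt2b (0.959), Six2 (0.948) and Prl2c3 (0.939) beside Mesp1, and Pfpl (0.957), Prl7a1 (0.942) and Mmp9 (0.942) beside Mesp2. Tbx6 was closest to Pmp22 (0.992), Atoh8 (0.991) and Pappa (0.989), and Msgn1 to Hapln1 (0.999), Unc5c (0.998) and Prrx1 (0.998). Kdr was closest to Rab8b (0.979), Dll1 (0.975) and Ifitm1 (0.966). Among members, Tbx6 and Msgn1 had an r of 0.973, and Mesp1 and Mesp2 of 0.896.

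In culture, 4 of the 10 genes passed the filter: T, Eomes, Mixl1 and Lhx1. The other 6 were low in all 12 libraries and were not tested. Mesp1 was listed at 0 in 10 libraries and reached 0.093 TPM at most, and Msgn1 was at 0 in 10 and reached 0.24 TPM. Mesp2 was highest in EpiLCs, at 0.747, 0.772 and 0.659 TPM, and at 0.263 TPM or less elsewhere. Tbx6 did not exceed 0.994 TPM, Kdr did not exceed 0.388 TPM, and Evx1 was highest in 2D EpiSCs (0.998, 1.38 and 0.467 TPM) and at 0 in all EpiLCs.

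T measured 1.46, 0.554 and 1.28 TPM in EpiLCs and 12.3, 14.1 and 22.98 TPM in ESC-derived 3D EpiSCs. It measured 54.6, 21.4 and 22.0 TPM in embryo-derived 3D EpiSCs and 37.5, 34.8 and 24.1 TPM in 2D EpiSCs. EpiLCs lay below all other cultures, and the embryo-derived 3D EpiSCs, whose replicate 1 stood apart, overlapped the 2D EpiSCs. The ESC-derived 3D EpiSCs lay below the 2D EpiSCs in all libraries, at -0.95 ± 0.35 (adjusted p = 0.0436), which is short of the threshold of 1. With median-of-ratios scaling it was -0.74 (adjusted p = 0.092). Without ESC-derived replicate 3 the difference was -1.20 and was called, as it was without 2D EpiSC replicate 3, at -1.14. The embryo-derived 3D EpiSCs differed from the 2D EpiSCs by -0.09, with a 95% interval from -0.85 to 0.67, and that sign turned without embryo-derived replicate 2 or 3 or without 2D EpiSC replicate 1. Without embryo-derived replicate 1 the difference was -0.52.

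Eomes was at 4.67, 3.19 and 5.31 TPM in EpiLCs and at 41.3, 40.7 and 24.6 TPM in ESC-derived 3D EpiSCs. It was at 116.2, 59.3 and 58.1 TPM in embryo-derived 3D EpiSCs and at 51.0, 50.9 and 48.3 TPM in 2D EpiSCs. No cultures overlapped, although neither 3D culture was called against 2D EpiSCs (-0.52 and 0.55, adjusted p = 0.134 and 0.142). The intervals of those differences ran from -1.11 to 0.07 and from -0.04 to 1.14. Between the 3D cultures the ESC-derived one was lower by -1.07 ± 0.27 (adjusted p = 0.0192). That call was lost without ESC-derived replicate 3 (-0.83), without embryo-derived replicate 1 (-0.74), with median-of-ratios scaling (-0.94), with only these 2 cultures fitted (adjusted p = 0.0822) and with near-identical libraries averaged (adjusted p = 0.078). Without embryo-derived replicate 1, the difference of that culture from 2D EpiSCs was 0.23.

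Mixl1 measured 1.36, 0.479 and 1.26 TPM in EpiLCs and 3.16, 2.61 and 5.61 TPM in ESC-derived 3D EpiSCs. It measured 23.5, 16.3 and 17.0 TPM in embryo-derived 3D EpiSCs and 4.64, 5.07 and 10.1 TPM in 2D EpiSCs. The embryo-derived 3D EpiSCs lay above every other culture, and the ESC-derived 3D EpiSCs overlapped the 2D EpiSCs. Mixl1 was higher in the embryo-derived 3D EpiSCs than in 2D EpiSCs (1.44 ± 0.30, adjusted p = 0.00341) and, among the 3D cultures, lower in the ESC-derived one (-2.09 ± 0.30, adjusted p = 0.000818). Both calls held when each library was left out and when near-identical libraries were averaged.

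Lhx1 spread the cultures widest. It measured 0.316, 0.0257 and 0.298 TPM in EpiLCs, 36.0, 48.0 and 47.3 TPM in embryo-derived 3D EpiSCs and 111.0, 103.6 and 89.1 TPM in 2D EpiSCs. In ESC-derived 3D EpiSCs it measured 1.64, 1.21 and 22.6 TPM. No cultures overlapped, and replicate 3 of the ESC-derived 3D EpiSCs stood far above its near-identical partners. Lhx1 was lower in ESC-derived 3D EpiSCs than in 2D EpiSCs (-4.30 ± 0.66, adjusted p = 0.000507) and than in embryo-derived 3D EpiSCs (-3.10 ± 0.66, adjusted p = 0.00895). Without replicate 3 these became -5.40 and -4.20, and the second was not called with only the 2 cultures in the fit (adjusted p = 0.07) or with near-identical libraries averaged (adjusted p = 0.153). The embryo-derived 3D EpiSCs differed from 2D EpiSCs by -1.20, with an interval from -2.65 to 0.25, which was called only when these 2 cultures alone were fitted. Summed extra-embryonic endoderm markers ran beside Lhx1 in the EpiSC cultures. The sum was 2.83, 2.64 and 22.8 TPM in ESC-derived 3D EpiSCs, 24.4, 39.6 and 43.8 TPM in embryo-derived 3D EpiSCs, 106.3, 104.0 and 69.9 TPM in 2D EpiSCs and 5.74, 4.99 and 4.04 TPM in EpiLCs. The ESC-derived and 2D libraries had the same order by this sum as by Lhx1, and the lowest embryo-derived library was the same, while replicates 2 and 3 of the latter and the EpiLC libraries were ordered otherwise. Of its 12 genes 4 were tested (Gata4, Gata6, Hhex and Sox17, which definitive endoderm also makes). All 4 were lower in ESC-derived 3D EpiSCs than in 2D EpiSCs, against 9.25% of all genes. Ttr and Afp were at or near 0 throughout. The part of this list in the Lhx1 levels was not tested.

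**Figure D4:**
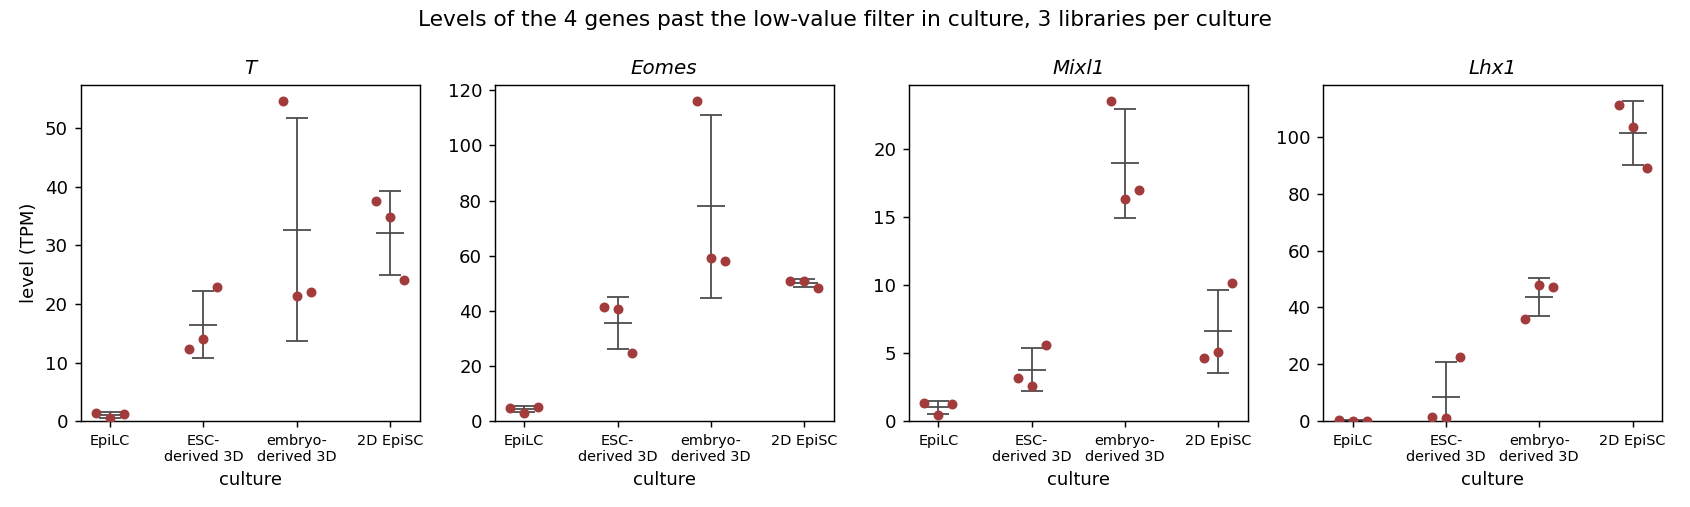
TPM of T, Eomes, Mixl1 and Lhx1 in 4 cultures, each panel with its own linear axis from 0; points are the 3 libraries, the wide tick is the mean and bars are 1 SD, cut at 0. Lhx1 was highest in 2D EpiSCs, Mixl1 in embryo-derived 3D EpiSCs, and EpiLCs were lowest for all 4.

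Against EpiLCs, each of the 3 other cultures had all 4 tested genes higher. The background of higher calls was 5.33% of 11541 genes for ESC-derived 3D EpiSCs, 10.5% for embryo-derived 3D EpiSCs and 15.2% for 2D EpiSCs. In the same order, 0 of 4 were lower in each, against 7.11%, 8.28% and 5.14% of all genes. T, Mixl1 and Lhx1 did not exceed 1.46, 1.36 and 0.316 TPM in EpiLCs, under the 2 TPM of the filter. They were tested only because of their levels in the other cultures, so these counts partly follow from the filter. The 3 comparisons share the EpiLC libraries. For T the differences were 3.04, 3.89 and 3.99 in that order, for Eomes 2.75, 3.81 and 3.26, for Mixl1 1.22, 3.31 and 1.86, and for Lhx1 2.10, 5.20 and 6.40, with SE between 0.27 and 0.66. Adjusted p ranged up to 0.0227, for Lhx1 in ESC-derived 3D EpiSCs. Without ESC-derived replicate 3 that difference was 1.00, and it was not called without EpiLC replicate 1 (adjusted p = 0.0504), 2 (adjusted p = 0.0654) or 3 (adjusted p = 0.053), or with only the 2 cultures fitted (adjusted p = 0.0857). Mixl1 in ESC-derived 3D EpiSCs was 0.96 and not called without replicate 3.

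Against 2D EpiSCs, 1 of 4 was lower in ESC-derived 3D EpiSCs (Lhx1, background 9.25%) and 0 were higher (0.633%). In embryo-derived 3D EpiSCs, 1 of 4 was higher (Mixl1, background 1.07%) and 0 were lower (7.75%). These comparisons share the 2D EpiSC libraries. T joined Lhx1 and made the lower count 2 without ESC-derived replicate 3 or without 2D EpiSC replicate 3. Of 8 trophectoderm markers tested, 4 were lower than in 2D EpiSCs in each 3D culture, with sums of 307, 219 and 701 TPM in ESC-derived, embryo-derived and 2D cells, and their part in these differences was not tested. Between the 3D cultures, 3 of 4 were lower in the ESC-derived one and 0 were higher, each against a background of 1.98%. The count was 1, Mixl1, with only these 2 cultures fitted or with near-identical libraries averaged. The median of the 4 was -1.58, against -0.12 for all genes. T, at -0.86 ± 0.35 (adjusted p = 0.0988), was not called, and without ESC-derived replicate 3 it was -1.11 and called.

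**Figure D5:**
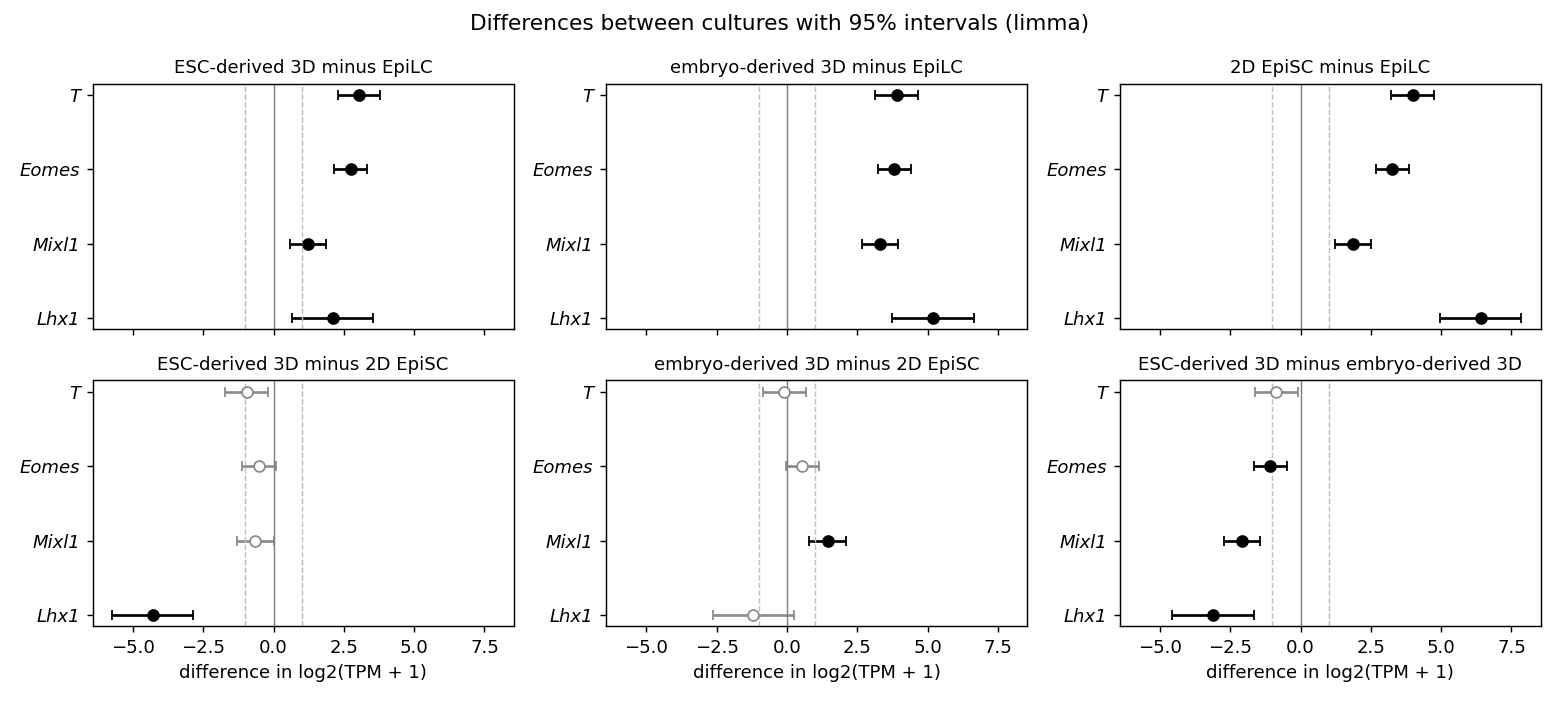
Difference in log2(TPM + 1) of T, Eomes, Mixl1 and Lhx1 for the 6 pairs of cultures, with 95% intervals from limma; filled points were called, open points were not, and dashed lines mark differences of 1. All 4 genes lie to the right of 0 against EpiLCs, and Lhx1 lies farthest left in both comparisons of the ESC-derived 3D EpiSCs with another EpiSC culture.

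Other streak factors accompanied these genes. Of 6 tested, 4 were lower in ESC-derived 3D EpiSCs than in 2D EpiSCs, with Gsc at -1.68 ± 0.28, and 1 was higher in embryo-derived 3D EpiSCs (Foxa2, a factor of anterior streak and endoderm, 1.19 ± 0.32). Between the 3D cultures 5 of 6 were lower in the ESC-derived one, with Gsc at -1.98 ± 0.28 and Sp5 at -1.79 ± 0.17. Of 8 ligands and co-receptors tested, 3 were higher in embryo-derived 3D EpiSCs than in 2D EpiSCs, among them Wnt3 at 1.76 ± 0.23. Of 5 paraxial genes tested, 0 were higher in either 3D culture than in 2D EpiSCs, and Dll1, a Notch ligand, was lower in both (-1.43 ± 0.27 and -1.04 ± 0.27). Over the 12 culture libraries, Eomes was closest to Foxa2 (r = 0.991), Tspan3 (0.985) and AI661453 (0.982), and Lhx1 to Zfp703 (0.997), Kcns3 (0.996) and Flt1 (0.993). T was closest to Ephb2 (0.991), Klhl9 (0.981) and Eml3 (0.980), and Mixl1 to Rab24 (0.980), Pcdhgb6 (0.980) and Hunk (0.972), as descriptions across 4 cultures.

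Side by side with the embryo, the balance of the cultures differed between members. Mean T was 32.1 TPM in 2D EpiSCs, 32.7 TPM in embryo-derived 3D EpiSCs and 16.5 TPM in ESC-derived 3D EpiSCs, beside 5.02 TPM at E5.5 and 29.8 TPM at E6.5. The embryo-derived mean of T rests on replicate 1, at 54.6 TPM, and the other libraries held 21.4 and 22.0 TPM. Mean Eomes was 50.1, 77.9 and 35.5 TPM in the same order of cultures, beside 77.6 TPM at E5.5 and 159.6 TPM at E6.5. Mean Mesp1 was 1.03 TPM at E5.5, 57.3 TPM at E6.5 and 0, 0 and 0.0189 TPM in these cultures. Lhx1 exceeded Mixl1 by 8.80 to 23.9 times in 2D EpiSCs and by 1.53 to 2.95 times in embryo-derived 3D EpiSCs, and the ratio was 0.465 to 4.03 in ESC-derived 3D EpiSCs. In the embryo that ratio was 1.66 to 2.01 at E5.5 and 0.679 to 0.920 at E6.5.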

How the data were processed

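Bulk RNA-seq of 27 of the 35 samples of the series was used, 15 embryo and 12 culture libraries. The authors deposited TPM, made by trimming with cutadapt 2.4, aligning to mm10 with STAR and quantifying GENCODE VM19 genes with StringTie. Culture libraries used poly-A capture with 8 PCR cycles and embryo libraries rRNA-depleted total RNA with 13. The study's methods give 50000000 paired-end fragments as the depth of a library in both sets. TPM summed to 1000000 in every library and do not show the depth each one reached, so no counting error was computed. Lines that shared an identifier (12 identifiers) were summed and empty cells (on 56 lines) were counted as 0.

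Autosomal protein-coding genes with TPM above 2 in at least 3 libraries of a set were kept, 11880 in vivo and 11541 in vitro. limma 3.58.1 in R 4.3.3 (lmFit, eBayes without trend) was run on log2(TPM + 1), with a single fit for each set and Benjamini-Hochberg adjustment over all genes of a comparison. Groups came from the labels. The 4 stage-to-stage steps and the 6 pairs of cultures were compared, with calls made at adjusted p under 0.05 and a difference over 1 in size. The fits were tested on simulated data. Tables and plots used Python 3.11.15, pandas 2.3.3 and matplotlib 3.10.9.

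All 10 members were named, with the 3 genes most like each by correlation and, for 8 other lists, up to 2 called genes of largest difference for each comparison; a few other genes were named after their values were seen. Members and lists were chosen with earlier results of these data known. Alternatives were a pseudocount of 0.1, no filter, all autosomal genes, median-of-ratios scaling, only the compared groups, a replicate block, an intensity trend and leaving out each library. Averaging of near-identical libraries, and leaving out libraries with the gene filter held fixed, were added after seeing the data.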

Additional observations from a re-analysis of the deposited data

Results flagged for a closer look

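The change against 2D EpiSCs differed between the 3D cultures for 3 genes, as tested by the direct comparison of the 3D cultures with limma. The change of ESC-derived minus that of embryo-derived 3D EpiSCs was -2.09 for Mixl1 (adjusted p = 0.000818), -1.07 for Eomes (adjusted p = 0.0192) and -3.10 for Lhx1 (adjusted p = 0.00895), all on the log2(TPM + 1) scale. All 3 ESC-derived libraries were below all 3 embryo-derived libraries for each gene. Replicate 3 of the ESC-derived culture stood apart for Lhx1, and without it the values were -2.34, -0.83 and -4.20, with Eomes no longer called. With only these 2 cultures fitted, neither Lhx1 (limma adjusted p = 0.07) nor Eomes (0.0822) was called. The same held with near-identical libraries averaged (0.153 and 0.078). Mixl1 kept its call in every alternative.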

How the results depend on the processing

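Over all alternatives, 1228 values for a single gene and comparison were recomputed: 1161 kept their direction and their side of the threshold, 30 lost the call, 16 gained it and 21 changed sign, none of the last being called. With a pseudocount of 0.1, members called from E3.5 to E4.5 went from 1 to 2 higher and from 0 to 1 lower. With median-of-ratios scaling, 2 rather than 1 were lower at E5.5 than at E4.5. With only the compared groups fitted, 1 rather than 0 was lower in embryo-derived 3D EpiSCs than in 2D EpiSCs, and 1 rather than 3 were lower in the ESC-derived of the 3D cultures; the latter count was also 1 with near-identical libraries averaged.

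Leaving out each library gave 0 to 2 lower at E5.5 than at E4.5 (main count 1), 5 to 8 higher at E6.5 (8), 2 to 4 higher at E7.5 (4) and 1 to 2 lower in ESC-derived 3D EpiSCs than in 2D EpiSCs (1). In these fits the filter on low values was recomputed. With any single E7.5 library left out, Tbx6 and Msgn1 then had TPM above 2 in too few libraries and were not tested, which gave the count of 2, and without E6.5 replicate 1 Mesp2 was not tested, which together with Eomes and Evx1 gave the count of 5. With the gene filter of all libraries kept, an alternative added after these losses were seen, the counts were 4 to 4 at E7.5 and 6 to 9 at E6.5, and the other ranges were as above.

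The sign changes were all small. Leaving out a library gave -0.27 to 0.027 for Mesp2, -0.097 to 0.027 for Tbx6 and -0.14 to 0.14 for Evx1 from E3.5 to E4.5 (Evx1 also turned at -0.093 and -0.038), -0.19 to 0.11 for Mesp2 from E4.5 to E5.5, and -0.52 to 0.13 for T in embryo-derived 3D EpiSCs against 2D EpiSCs, where T also turned at 0.11 and 0.029, and at 0.22 with near-identical libraries averaged.

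The replicate numbers did not pair the samples: deviations of same-numbered libraries had a mean correlation of -0.0166 in vivo and -0.0299 in vitro. With the replicate number as a block, member counts stayed at 1, 5, 8 and 4 higher in the successive steps and at 4 higher against EpiLCs, and no single call changed.

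Median-of-ratios scaling brought the median difference of all genes at E7.5 against E6.5 from 0.31 to 0.01, and in ESC-derived 3D EpiSCs against 2D EpiSCs from -0.21 to -0.01; no member called in either step changed direction. Counts over all genes moved more. At E6.5 against E5.5, 85 higher and 57 lower became 136 and 126 with a pseudocount of 0.1, and 185 lower over all autosomal genes. At E7.5 against E6.5, 1265 higher and 231 lower became 710 and 383 with median-of-ratios scaling (84.6% of calls higher against 65.0%), 1960 were higher over all autosomal genes, and 354 were lower with a pseudocount of 0.1. In ESC-derived 3D EpiSCs against 2D EpiSCs, 73 higher became 129 with a pseudocount of 0.1 and 134 with scaling, and 1068 lower became 709 with scaling. In embryo-derived 3D EpiSCs, 123 higher became 295 over all autosomal genes. Between the 3D cultures, 228 higher and 229 lower became 374 and 345 with a pseudocount of 0.1, scaling gave 148 lower (49.9% of calls higher against 64.8%), 427 were lower without ESC-derived replicate 3 and 99 with near-identical libraries averaged. For 2D EpiSCs against EpiLCs, scaling moved the share of calls that were higher from 74.8% to 62.1%, and 593 lower became 342 to 375 when an EpiLC library was left out. In ESC-derived 3D EpiSCs against EpiLCs, 821 lower became 544 without EpiLC replicate 1.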
